A study of Papio anubis and Macaca mulatta with 6 samples.

Results

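Sertoli cells of the prepubertal baboon testis were described from the single-cell RNA-seq libraries of 2 untreated olive baboons (Papio anubis). A barcode was kept when it held at least 1000 unique molecular identifiers (UMIs), when at least 0.3% of its UMIs came from 10 Sertoli cell genes (AMH, INHA, INHBB, FATE1, AARD, PRND, SERPINA5, APOA1, SOX9 and DHH), when these UMIs were at least 4 times those of 7 stromal genes (DCN, PDGFRA, TCF21, C7, NR2F2, COL1A1 and COL3A1), and when it had fewer than 2 UMIs of KRT19. The rule kept 14663 of the 21693 baboon barcodes with at least 1000 UMIs, out of 44341 such barcodes in all libraries of both species. These are called Sertoli-like barcodes. The kept barcodes numbered 7182 of 9125 in library 1A, 3940 of 5021 in library 1B and 3541 of 7547 in the library of baboon 2, and the 7030 other barcodes were the main comparator.

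Sertoli cells are the somatic cells of the seminiferous epithelium. They enclose the germ cells, and before puberty they are immature, still able to divide, and secrete anti-Müllerian hormone (AMH) and inhibin B in large amounts. At puberty they stop dividing, AMH falls under androgen action, and tight junctions between them close the blood-testis barrier.

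Baboon 1 gave the libraries 1A and 1B, prepared by version 2 of the 10x 3′ kit, and baboon 2 gave 1 library prepared by version 3, so that animal and chemistry cannot be told apart. The testes came from necropsies for other purposes, were untreated, and were digested with collagenase and then trypsin, with a wash between them against interstitial cells, which bears on the share of each cell type. The text of the series gives the baboons as 15 and 20 months old, whereas the study's methods give them as newborn and 26 months, the ages that the text of the series gives to the rhesus monkeys. No source used here tied an age to an animal, so any difference between the animals may also be one of age and cannot be told apart from it. The libraries held 31074298, 16875294 and 49803025 UMIs over all barcodes, and the Sertoli-like barcodes had medians of 2052, 2124.5 and 4290.0 UMIs. Levels are given as counts per 1000000 UMIs (CPM), with UMIs summed over the barcodes of a class in a library, in the order 1A, 1B and baboon 2. Among 3134 genes with at least 50 CPM, the libraries 1A and 1B, which came from the same animal, differed by a median of 1.03-fold in Sertoli-like barcodes, and 1 gene, HBB, passed 2-fold. They shared 57 barcodes of at least 1000 UMIs, and 1A and 1B shared 1 and 2 with baboon 2. No doublet caller was run. The limit of 4 times the stromal UMIs leaves out only those mixed barcodes that hold too many stromal UMIs to meet it. Mixed barcodes with fewer stromal UMIs, or with RNA of other cell types, could stay among the Sertoli-like ones.

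The label was checked with genes that the rule did not read. WT1, a zinc-finger transcription factor of Sertoli cells and their precursors, stood at 187, 186 and 134 CPM in Sertoli-like barcodes (chromosome 12, 91740114 to 91788721, in the RefSeq annotation of Panubis1.0). GATA4, a transcription factor of gonadal somatic cells that drives AMH, stood at 301, 289 and 250.3 CPM, and DMRT1, which maintains the male fate of Sertoli cells, at 70.7, 75.7 and 72.3 CPM. In stromal barcodes, defined by the mirror rule (at least 0.3% of UMIs from the 7 stromal genes and 4 times those of the Sertoli cell genes; 636, 375 and 2715 barcodes), WT1 had 33.8, 28.6 and 18.6 CPM and DMRT1 2.18, 3.58 and 3.46 CPM. FOXL2, which maintains granulosa cells of the ovary, had 0 UMIs in Sertoli-like barcodes, which allows up to 0.0551 CPM (3 UMIs over all of them), and SHBG, the androgen-binding protein, had 0.933, 1.16 and 2.12 CPM. These values did not go against the label.

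Markers of other cell types were summed as a check on mixture. The 10 stromal marker genes outside the rule (LUM, PDGFRB, COL1A2 and others) summed to 37.4, 37.7 and 108 CPM in Sertoli-like barcodes and to 5227, 5450.4 and 4806 CPM in stromal ones. The rule limits other stromal genes in the first class and the mirror rule asks for them in the second. Low stromal levels in Sertoli-like barcodes are thus largely set by the choice. The 8 germ cell genes summed to 55.7, 59.5 and 88.9 CPM, against 272, 225 and 153 CPM in all other barcodes, and DDX4, the defining RNA helicase of germ cells, had 1.76, 2.33 and 1.74 CPM. The 8 endothelial genes summed to 6.91, 14.7 and 42.98 CPM, the 9 macrophage genes to 26.99, 10.5 and 18.2 CPM, the 8 lymphoid genes to 6.14, 4.17 and 8.76 CPM, the 6 pericyte genes to 51.4, 49.4 and 22.7 CPM and the 7 myoid genes to 18.9, 14.5 and 29.2 CPM. Of the 5 Leydig cell genes listed, INSL3 had 0.878, 2.33 and 11.8 CPM and LHCGR 0, 0 and 0.386 CPM, so that their sum of 207, 206 and 249 CPM was carried by HSD17B3 and HSD3B2, described with the metabolic genes. The erythroid sum, 119, 20.9 and 1.35 CPM, was almost all HBB, of which 1 barcode held 2125 of 2131 UMIs in 1A and 1 barcode 195 of 199 in 1B. The 8 genes listed for KRT19-expressing epithelium (PAX8, EPCAM, CDH1 and others) summed to 20.4, 24.6 and 56.1 CPM, against 62.2, 70.3 and 53.4 CPM in all other barcodes. The stromal, endothelial, germ cell, myoid, lymphoid, Leydig and KRT19 epithelium sums were highest in baboon 2. By the test described below, 0 of the genes tested in these lists were higher than in all other barcodes. Lower were 9 of 10 stromal, 5 of 8 germ cell, 5 of 6 pericyte, 3 of 6 myoid and 5 of 9 macrophage genes. So were 1 of 8 endothelial, 1 of 7 lymphoid, 1 of 6 KRT19 epithelium, 0 of 4 Leydig and 0 of 3 erythroid genes. In that test 6.75% of all genes were lower. The part of other cell types in the results was not tested.

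RNA outside cells was read from barcodes with 10 to 100 UMIs. AMH had 5223, 6193 and 5332 CPM there, whereas DCN had 443, 473 and 878 CPM. Stromal barcodes carried 261, 256 and 304 CPM of AMH, and after thinning every barcode to 1000 UMIs 22.9% and 25.5% of them in baboon 1 and baboon 2 had an AMH UMI. The stromal rule limits AMH, so these shares do not measure free RNA. For FSHR, DAZL, UTF1 and APOE, outside the rule, a share of barcodes with a UMI is given below beside that in stromal barcodes, whose median depths were 1343.5, 1389 and 1803 UMIs. For the other genes outside the rule no such share is given.

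The genes of the rule are given as a description, since they chose the barcodes. AMH (chromosome 20, 49338805 to 49341671) led them by far, at 7072, 7111 and 8019 CPM, and supplied 75.5%, 75.8% and 80.3% of the UMIs of the 10 Sertoli cell genes. The order below it was not the same in the animals. INHA, the alpha subunit shared by inhibins A and B, had 708, 710.4 and 473 CPM and came second in baboon 1. APOA1, the main protein of high-density lipoprotein, had 454, 459 and 539 CPM and came second in baboon 2. SOX9, the transcription factor that starts Sertoli cell fate (chromosome 17, 63956200 to 63961368), had 387, 394 and 259 CPM, and SERPINA5, the protein C inhibitor, 362, 340.4 and 325 CPM. INHBB, the beta B subunit that makes inhibin B with INHA, had 207, 194 and 174 CPM. DHH, the hedgehog ligand with which Sertoli cells signal to Leydig and myoid precursors, had 67.8, 66.4 and 46.8 CPM, FATE1 63.9, 64.1 and 113 CPM and AARD 41.5, 37.9 and 39.3 CPM. INHA, SOX9 and DHH were lower and FATE1 was higher in baboon 2 than in both libraries of baboon 1, and AARD had nearly the same level in all libraries. PRND, which encodes the prion-like protein doppel, had 0, 0 and 0.617 CPM (16 UMIs), and so had almost no part in the choice.

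**Figure D1:**
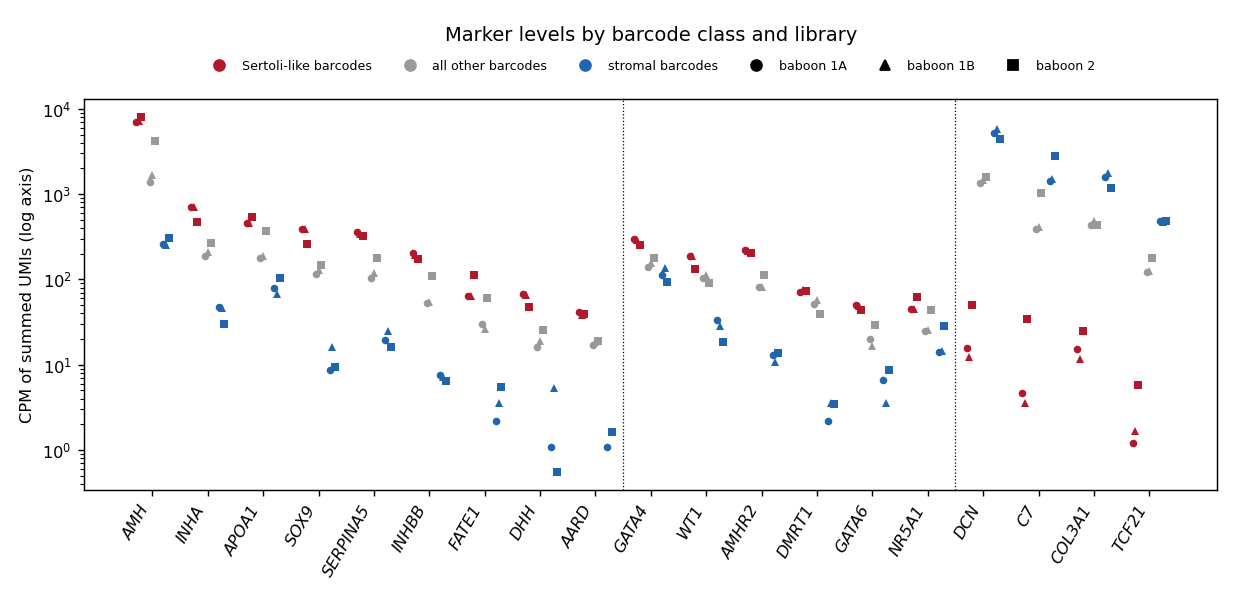
Each point is the level of a gene in 1 library, as CPM of summed UMIs on a log axis, in Sertoli-like (red), all other (grey) and stromal (blue) barcodes; circles, triangles and squares stand for 1A, 1B and baboon 2, and values of 0 are not drawn. The dotted lines separate Sertoli cell genes of the rule, genes outside it and stromal genes of the rule; the other barcodes of baboon 2 hold 4155 CPM of AMH, above both libraries of baboon 1.

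The shares of barcodes with a UMI of a rule gene are a description too. After thinning to 1000 UMIs, 98.98% and 98.9% (99.8% and 99.4% without thinning) of them had an AMH UMI in baboon 1 and baboon 2, a share that the choice of barcodes sets. INHA was found in 49.2% and 37.2% (73.9% and 81.6% without thinning), SOX9 in 28.4% and 20.1% and DHH in 6.35% and 4.49% (14.9% and 24.8% without thinning). Without thinning the share of Sertoli-like barcodes with a SOX9 UMI was 50.03% and 61.1%, so that the order of the animals turned with depth. The median share of UMIs from the 10 Sertoli cell genes was 0.861%, 0.868% and 0.964%. The limit of 0.3% cut through the lower tail of baboon 1. Within 0.05 percentage points of it lay 234, 141 and 24 barcodes inside and 241, 122 and 25 outside. WT1 stood at 185, 185 and 219 CPM just inside and at 148, 167 and 119 CPM just outside, so barcodes on both sides of the limit carried WT1.

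The share of Sertoli-like barcodes was 78.6% of the 14146 barcodes of baboon 1 (exact 95% interval 77.9 to 79.3%) and 46.9% of the 7547 of baboon 2 (45.8 to 48.1%), with 78.7% and 78.5% in 1A and 1B. Intervals cover counting error only. The libraries of baboon 1 lay close together and far from baboon 2, where stromal barcodes made up more of the library. Digestion, chemistry, age and animal cannot be told apart here.

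To ask which genes outside the rule set Sertoli-like barcodes apart, UMIs were summed per animal (n = 2) and class and tested with the quasi-likelihood test of edgeR. The classes were cut on 18 genes in the same barcodes, so a low p says that the classes so defined differed beyond the spread of the animals. Of 16949 genes outside the rule, 7 were higher in Sertoli-like barcodes (0.0413%) and 1144 lower (6.75%) at an adjusted p under 0.05. This comparator was not free of Sertoli-like RNA. Barcodes that met both Sertoli limits but had 2 or more KRT19 UMIs (75, 54 and 399) supplied 8.11%, 10.5% and 46.9% of the UMIs of the other barcodes. Both sums of an animal come from the same libraries, and with the animal as a block in the model 1753 genes were higher (10.3%) and 3376 lower (19.9%). Against stromal barcodes alone, without the block, 1353 of 15327 genes were higher (8.83%) and 1714 lower (11.2%), and with the block 3812 (24.9%) and 3511 (22.9%). Without library 1A the counts against all others were 1 and 709 and without 1B 0 and 894, and with a minimum of 2000 UMIs they were 0 and 0, with 3860 genes (22.8%) at an unadjusted p under 0.05 in the main test and 238 and 2209 called by DESeq2. Without the KRT19 limit they were 620 and 2654. Against stroma they were 1240.0 and 1609 without 1A and 1341 and 1681 without 1B. Below, the calls against all others, with and without the block, and those against stroma are given side by side. Each count of a list is to be read against these shares of all genes. Without the block they were 0.0413% higher and 6.75% lower against all others, and 8.83% and 11.2% against stroma. Of 141 listed or named genes called against stroma, 141 were also called with the block, 137 without 1A (STRA6 was not tested there) and 137 without 1B. The median log2 fold change of all genes tested was 0.03 against all other and 0.05 against stromal barcodes.

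Of the 7 genes higher against all other barcodes, 6 had a gene symbol and 20 CPM or more in both animals. AMHR2, the receptor that binds AMH (chromosome 9, 48208913 to 48218010), had 221, 216 and 205 CPM in Sertoli-like barcodes and 80.6, 81.01 and 111 CPM in all others (log2 fold change 1.23, SE 0.24, adjusted p = 0.0475). Stromal barcodes had 13.1, 10.7 and 13.7 CPM. DCLK1, a microtubule-associated kinase, had 161, 160.2 and 141 against 52.3, 64.9 and 73.99 CPM (log2 fold change 1.29, SE 0.25, adjusted p = 0.0452). BRICD5 had 123, 125 and 100.2 against 43.9, 41.8 and 49.2 CPM (log2 fold change 1.36, SE 0.26, adjusted p = 0.0455), and LIPH, a phospholipase that makes lysophosphatidic acid, 74.0, 81.1 and 58.9 against 24.3, 23.8 and 30.4 CPM (log2 fold change 1.40, SE 0.29, adjusted p = 0.0499). CCSER1 and CHI3L1, a secreted chitinase-like protein, had log2 fold changes of 1.43 (SE 0.28, adjusted p = 0.0462) and 1.39 (SE 0.27, adjusted p = 0.045). These 6 genes were picked as past the threshold and higher in both animals. That their Sertoli-like libraries lay above the others is thus largely set by the choice and adds no support. The adjusted p lay near the threshold, and all 6 calls were lost without 1A and also without 1B (for AMHR2 log2 fold changes 1.18 and 1.23). In the KRT19-positive barcodes AMHR2 had 251, 175 and 204 CPM, DCLK1 130, 182 and 127 CPM and LIPH 77.8, 72.9 and 56.2 CPM. The 6 genes were not called against these barcodes without the block. Their calls therefore hold against the other barcodes as a whole and not against this class.

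The 10 genes with the largest decrease were GPC3, SRPX, CAPN6, CTAG2, OGN, HAPLN1, MFAP4, DZIP1, SNAI2 and APOD. GPC3, a cell-surface proteoglycan, had 0.219, 0.485 and 1.43 CPM in Sertoli-like and 38.3, 40.7 and 61.7 CPM in all other barcodes (log2 fold change -5.81, SE 0.68, adjusted p = 0.0241). OGN, a small leucine-rich proteoglycan, had 0.987, 1.16 and 1.74 against 68.01, 66.8 and 59.2 CPM (log2 fold change -5.46, SE 0.37, adjusted p = 0.022), and MFAP4, a microfibril protein, 0.549, 0.776 and 2.86 against 60.3, 58.4 and 94.3 CPM (log2 fold change -5.42, SE 0.71, adjusted p = 0.0268). SRPX, CAPN6, HAPLN1, DZIP1, SNAI2 and APOD had log2 fold changes between -5.37 and -5.58. Their levels in Sertoli-like barcodes were at most 7.68 CPM, that of APOD in baboon 2. CTAG2, a cancer-testis antigen, had 0.713, 0.679 and 1.23 against 64.03, 60.7 and 26.02 CPM (log2 fold change -5.51, SE 0.66, adjusted p = 0.0241) and 0, 0 and 1.64 CPM in stromal barcodes, so that it was low in both of these classes.

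The same naming rule was applied to the comparison with stromal barcodes, a choice made after the values were seen. There 875 genes qualified as higher. ERBB3, a receptor tyrosine kinase of the EGFR family that binds neuregulins, had 150.0, 142 and 75.3 CPM in Sertoli-like and 4.36, 0 and 3.46 CPM in stromal barcodes (log2 fold change 5.06, SE 0.53, adjusted p = 0.00465). Its relative ERBB4 had 28.8, 32.8 and 47.1 against 0, 0 and 1.82 CPM (log2 fold change 4.79, SE 0.68, adjusted p = 0.00895). Both receptors were low in every stromal library. GNRHR, the receptor of gonadotropin-releasing hormone, had 36.1, 37.1 and 21.5 against 2.18, 1.79 and 0.364 CPM (log2 fold change 5.11, SE 0.81, adjusted p = 0.0124). RNF43, an E3 ligase that removes WNT receptors, had 78.9, 80.7 and 58.5 against 3.27, 3.58 and 1.82 CPM (log2 fold change 4.83, SE 0.47, adjusted p = 0.0041), and MFSD2A, a lysolipid transporter, 57.1, 52.2 and 102 against 0, 1.79 and 2.91 CPM (log2 fold change 5.04, SE 0.56, adjusted p = 0.00501). MFSD2A was higher in baboon 2 and RASEF, at 103, 105 and 37.4 CPM, was highest in baboon 1, yet both animals stood above their stromal barcodes. The remaining genes among the first 15 were HOOK1, SLAIN1, MYRF, CDH2, ZNF536, RPH3AL, DCAF8L2, MYOM3 and SORT1, of which HOOK1 rested on 3 stromal UMIs, and the others had log2 fold changes between 4.78 and 5.54.

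**Figure D2:**
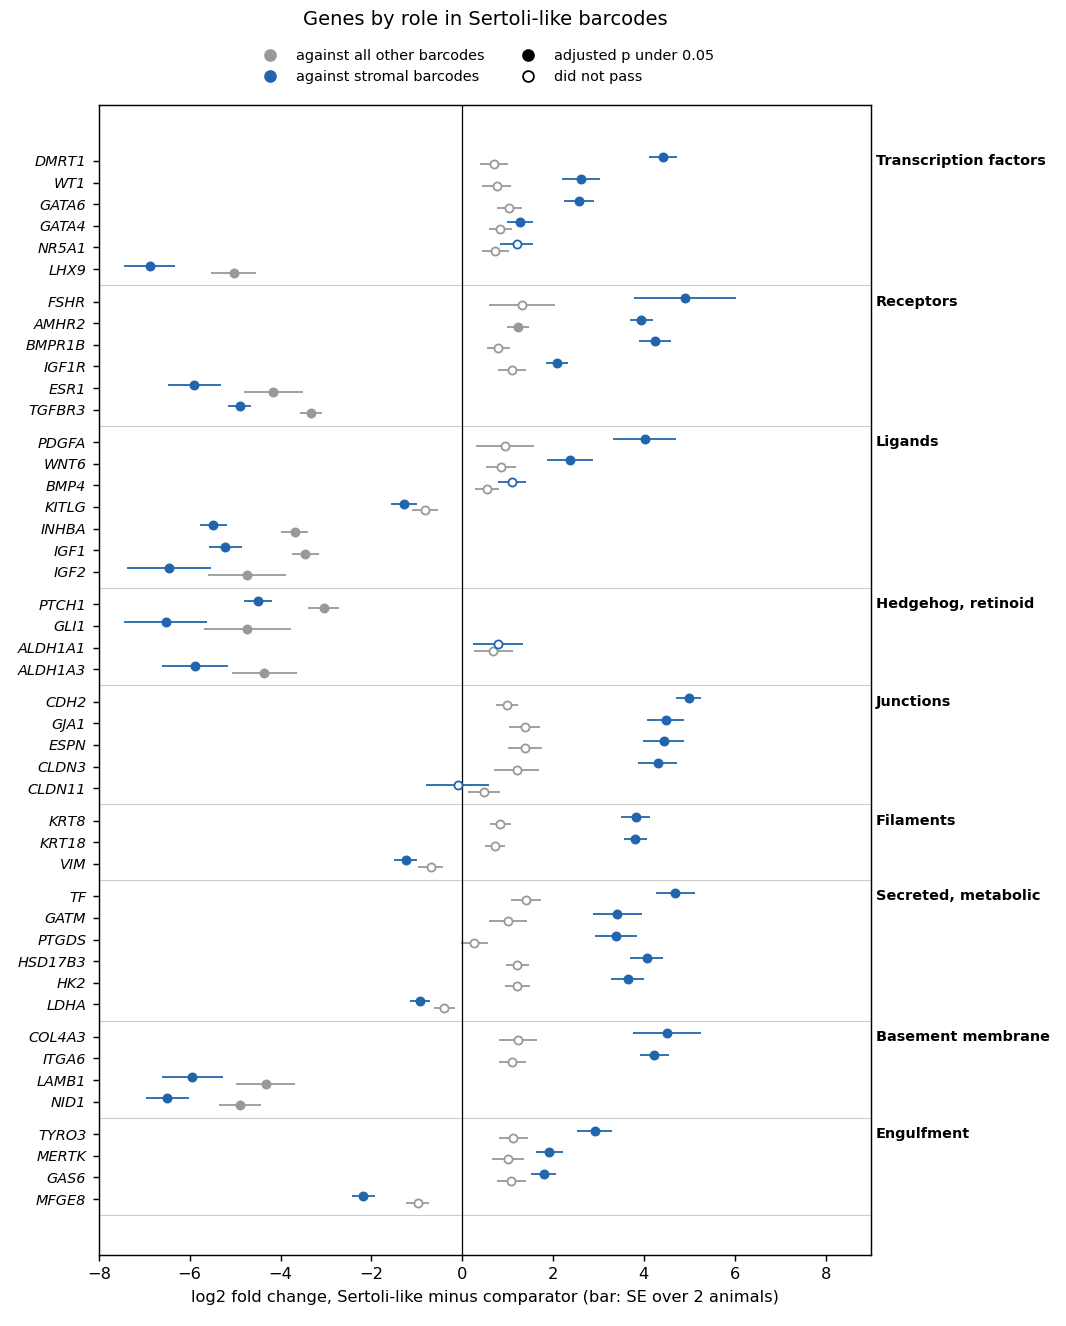
Log2 fold change of named genes between Sertoli-like and all other (grey) or stromal (blue) barcodes. Bars show the standard error derived from the fold change and its F statistic, in the fit without the block on sums of 2 animals. Filled points passed an adjusted p under 0.05 and open points did not. Most junction and secreted genes lie farther to the right against stromal than against all other barcodes, for example CDH2 at 0.98 and 4.99.

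Among the gonadal transcription factors, 0 were higher and 3 lower of 14 tested against all other barcodes (median log2 fold change -0.73, against 0.03 over all genes), 5 and 7 with the animal as a block, and 4 and 2 of 11 against stromal barcodes (median 1.20, against 0.05; 6 and 4 with the block). The genes lower against all others were EMX2 (-5.20), LHX2 (-5.11) and LHX9 (-5.04), homeobox genes, with the log2 fold change in parentheses as in the lists below. LHX9 had 1.21, 1.26 and 3.32 CPM in Sertoli-like barcodes and 263, 315 and 208 CPM in stromal ones (log2 fold change -6.89, SE 0.57, adjusted p = 0.00319). Against stroma DMRT1 (log2 fold change 4.42, SE 0.31, adjusted p = 0.00296), WT1 (log2 fold change 2.62, SE 0.41, adjusted p = 0.0122) and GATA6 (log2 fold change 2.57, SE 0.34, adjusted p = 0.00742) were higher in Sertoli-like barcodes. GATA4 was higher too (log2 fold change 1.27, SE 0.28, adjusted p = 0.0323), but stromal barcodes also held 111, 134 and 93.6 CPM of it. NR5A1 (SF-1), an activator of AMH and of steroidogenic genes, had 45.1, 45.2 and 62.5 CPM and passed with the block against all others (adjusted p = 0.00759) but not in the other comparisons (adjusted p = 0.229 and 0.0766). NR0B1 (DAX1), a repressor that works with NR5A1, had 38.5, 33.97 and 57.4 CPM against 71.95, 78.8 and 102 CPM in stroma (log2 fold change -1.02, SE 0.28, adjusted p = 0.0608, and 2.84e-06 with the block).

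Receptors for the hormones that act on Sertoli cells were present at unequal levels. Of the list, 0 were higher and 2 lower of 13 tested against all other barcodes (median log2 fold change -0.10, against 0.03 over all genes), 2 and 4 with the animal as a block, and 2 and 4 of 14 against stromal barcodes (median -1.07, against 0.05; 3 and 7 with the block). FSHR, the receptor of follicle-stimulating hormone and a Sertoli cell gene within the testis (chromosome 14, 49252907 to 49445816), had 14.5, 13.6 and 41.9 CPM in Sertoli-like and 4.36, 0 and 0.182 CPM in stromal barcodes. All Sertoli-like libraries were above all stromal ones (log2 fold change 4.91, SE 1.12, adjusted p = 0.0352), and after thinning an FSHR UMI was found in 1.36% and 3.5% (3.43% and 22.6% without thinning) of Sertoli-like barcodes of baboon 1 and baboon 2 and in 0.198% and 0.0368% of stromal ones. Against all other barcodes FSHR passed with the block only (adjusted p = 4.74e-04, and 0.376 without). IGF1R, the receptor of insulin-like growth factor 1, had 169.6, 160.2 and 156 against 34.9, 34.02 and 36.6 CPM (log2 fold change 2.09, SE 0.23, adjusted p = 0.00527). ESR1, the estrogen receptor alpha, was at 0.329, 0.0971 and 0.772 CPM and lower than in stroma (log2 fold change -5.90, SE 0.59, adjusted p = 0.0042), and ESR2 was at 5.38, 5.24 and 9.07 CPM (log2 fold change 1.83, SE 0.56, adjusted p = 0.0813, and 0.0012 with the block). Against all others the genes lower were THRB (-4.47) and ESR1 (-4.16). THRA, THRB and NR3C1, receptors of thyroid hormone and glucocorticoids, were lower than in stroma, with log2 fold changes of -2.33, -5.77 and -2.20 (adjusted p = 0.0143, 0.00855 and 0.0142).

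AMH and the inhibins signal through receptors of the TGF-beta family, and of this list 1 was higher and 4 lower of 14 tested against all other barcodes (median log2 fold change 0.15, against 0.03 over all genes), 5 and 5 with the animal as a block, and 2 and 4 of 13 against stromal barcodes (median 0.54, against 0.05; 6 and 5 with the block). AMHR2 was the gene higher against all others, and the genes lower were FST (-4.70), INHBA (-3.69), TGFBR2 (-3.51) and TGFBR3 (-3.33). BMPR1B, a type I receptor of bone morphogenetic proteins, had 44.7, 43.4 and 41.1 CPM against 1.09, 3.58 and 2.18 CPM in stroma (log2 fold change 4.24, SE 0.35, adjusted p = 0.00319). The groups were far apart. ACVR2A and ACVR2B, the type II receptors of activin, had 14.8, 20.2 and 12.1 and 31.2, 25.4 and 29.8 CPM and did not pass against stroma (adjusted p = 0.542 and 0.398, and 0.163 and 0.0849 with the block). INHBA, the beta A subunit, had 7.24, 7.96 and 11.4 CPM in Sertoli-like and 378, 381 and 401 CPM in stromal barcodes (log2 fold change -5.48, SE 0.29, adjusted p = 0.00296). TGFBR3 (betaglycan), the co-receptor of inhibin, had 11.6, 12.1 and 15.5 against 396, 365 and 376 CPM (log2 fold change -4.90, SE 0.26, adjusted p = 0.00296), and TGFBR2 1.21, 2.14 and 4.17 against 34.9, 25.1 and 27.5 CPM (log2 fold change -3.48, SE 0.52, adjusted p = 0.0107).

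Sertoli cells supply ligands to germ and interstitial cells, and of the niche ligands 0 were higher and 6 lower of 17 tested against all other barcodes (median log2 fold change -1.04, against 0.03 over all genes), 3 and 9 with the animal as a block, and 2 and 7 of 14 against stromal barcodes (median -1.43, against 0.05; 6 and 8 with the block). PDGFA had 19.97, 19.4 and 53.9 CPM in Sertoli-like and 1.09, 0 and 2.73 CPM in stromal barcodes (log2 fold change 4.02, SE 0.70, adjusted p = 0.0155), and WNT6 33.4, 30.9 and 44.02 against 2.18, 3.58 and 9.65 CPM (log2 fold change 2.38, SE 0.50, adjusted p = 0.028). Both were highest in baboon 2 among the Sertoli-like libraries. BMP4 had 31.7, 32.03 and 28.4 CPM and passed with the block against all others (adjusted p = 0.0338) but not against stroma (adjusted p = 0.0594, and 2.21e-04 with the block). FGF9, which supports the male fate of the gonad, had 8.89, 8.73 and 9.14 CPM, with 2 UMIs in all stromal barcodes (adjusted p = 0.0569, and 5.89e-07 with the block; against all others log2 fold change 0.33, SE 0.39, adjusted p = 0.742, and 0.376 with the block). GDNF, the growth factor that maintains spermatogonial stem cells, was close to the detection limit at 2.08, 2.72 and 0.463 CPM, that is 38, 28 and 12 UMIs in all Sertoli-like barcodes, and was not called against all others (adjusted p = 0.963). KITLG, the ligand of KIT, had 10.5, 9.61 and 12.6 CPM and was lower than in stroma (log2 fold change -1.29, SE 0.29, adjusted p = 0.0329). IGF2 had 6.75, 7.38 and 39.2 CPM against 1409, 1345 and 2283 CPM in stroma (log2 fold change -6.45, SE 0.93, adjusted p = 0.00946), IGF1 4.06, 6.11 and 6.79 against 231, 249 and 162 CPM (log2 fold change -5.22, SE 0.36, adjusted p = 0.00296) and FGF2 0.933, 0.776 and 4.32 against 22.9, 23.3 and 48.1 CPM (log2 fold change -3.93, SE 0.79, adjusted p = 0.0241). IGF1, IGF2 and FGF2 were more abundant in stromal barcodes, whereas IGF1R was higher in Sertoli-like ones. Against all others the largest decreases were those of BMP7 (-4.97), IGF2 (-4.74), NRG1 (-4.13) and IGF1 (-3.45).

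DHH was read in Sertoli-like barcodes by the rule, while most of its listed receptors and targets were lower there than in stromal barcodes. Of the list, 0 were higher and 4 lower of 10 tested against all other barcodes (median log2 fold change -1.33, against 0.03 over all genes), 0 and 6 with the animal as a block, and 0 and 7 of 10 against stromal barcodes (median -2.79, against 0.05; 0 and 8 with the block). PTCH1, the hedgehog receptor and a target of the pathway, had 2.58, 2.14 and 2.35 CPM in Sertoli-like and 47.97, 37.6 and 56.8 CPM in stromal barcodes (log2 fold change -4.49, SE 0.31, adjusted p = 0.00296). Against all others the largest decreases were those of BOC (-4.85), GLI1 (-4.73), PTCH1 (-3.05) and GLI2 (-2.96). GLI1, a transcriptional output of the pathway, had 0.0549, 0 and 0.386 against 19.6, 21.5 and 16.2 CPM (log2 fold change -6.53, SE 0.92, adjusted p = 0.00874). Of the retinoic acid pathway, 0 were higher and 5 lower of 16 tested against all other barcodes (median log2 fold change -1.46, against 0.03 over all genes), 1 and 8 with the animal as a block, and 0 and 7 of 14 against stromal barcodes (median -1.43, against 0.05; 2 and 7 with the block). The largest decreases against all others were those of RBP4 (-5.16), RARB (-5.00), ALDH1A3 (-4.35) and RARG (-4.05). ALDH1A1, a retinaldehyde dehydrogenase, had 339, 346 and 198 CPM and passed with the block against all others (adjusted p = 0.011), and not against stroma without it (adjusted p = 0.382, and 8.19e-06 with the block). ALDH1A3 was at 0.384, 0.971 and 2.24 CPM and lower than in stroma (log2 fold change -5.89, SE 0.73, adjusted p = 0.00633). RARB and RARG, retinoic acid receptors, were lower too, with log2 fold changes of -6.20 and -5.51 (adjusted p = 0.00462 and 0.00349).

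Of the genes of epithelial junctions, 0 were higher and 0 lower of 20 tested against all other barcodes (median log2 fold change 0.50, against 0.03 over all genes), 9 and 2 with the animal as a block, and 11 and 0 of 19 against stromal barcodes (median 2.62, against 0.05; 12 and 2 with the block). CDH2 (N-cadherin), the cadherin of Sertoli cells, had 137, 132 and 143 CPM in Sertoli-like and 2.18, 7.16 and 4.19 CPM in stromal barcodes (log2 fold change 4.99, SE 0.28, adjusted p = 0.00296). GJA1 (connexin 43) had 75.3, 74.6 and 51.9 against 2.18, 3.58 and 2.73 CPM (log2 fold change 4.48, SE 0.41, adjusted p = 0.0038), and ESPN, the actin bundler of the ectoplasmic specialization, 182, 176 and 104 against 6.54, 7.16 and 6.01 CPM (log2 fold change 4.43, SE 0.45, adjusted p = 0.00438). All Sertoli-like libraries were above all stromal ones in these genes. CLDN3, a claudin of the barrier, had 82.1, 80.4 and 147 against 3.27, 3.58 and 6.55 CPM (log2 fold change 4.31, SE 0.43, adjusted p = 0.0043), with its highest level in baboon 2. TJP1 (ZO-1) had 224, 223 and 413 against 26.2, 37.6 and 67.0 CPM (log2 fold change 2.58, SE 0.45, adjusted p = 0.0156). CLDN11, the claudin that the barrier of the adult testis needs, had 73.5, 72.99 and 56.8 CPM, overlapped the stromal 110.1, 104 and 24.8 CPM and did not pass (log2 fold change -0.10, SE 0.70, adjusted p = 0.942, and 0.446 with the block). OCLN, occludin, was at 1.32, 2.33 and 2.35 CPM, with 0 UMIs in stromal barcodes, so that it was at least 4.65-fold higher against a floor of 3 UMIs over all of them (adjusted p = 0.0433, and 0.0565 without 1B).

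KRT8 and KRT18, the keratin pair of simple epithelia, are known from immature Sertoli cells. KRT18 had 159, 155 and 181 CPM in Sertoli-like and 13.1, 8.95 and 11.1 CPM in stromal barcodes (log2 fold change 3.81, SE 0.25, adjusted p = 0.00296), and KRT8 197, 191 and 191 against 20.7, 7.16 and 10.7 CPM (log2 fold change 3.82, SE 0.32, adjusted p = 0.00319). With the block both also passed against all other barcodes (adjusted p = 0.00705 and 0.00334). VIM, the vimentin gene, was abundant at 789, 768 and 941 CPM and yet lower than in stroma, at 1802, 1846 and 1999 CPM (log2 fold change -1.25, SE 0.25, adjusted p = 0.0235). Of the filament list, 0 were higher and 1 lower of 5 tested against all other barcodes (median log2 fold change 0.23, against 0.03 over all genes), 2 and 2 with the animal as a block, and 2 and 2 of 5 against stromal barcodes (median 0.00, against 0.05; 2 and 2 with the block), the gene lower against all others being NES (-3.36).

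Of the basement membrane genes, 0 were higher and 6 lower of 20 tested against all other barcodes (median log2 fold change 0.10, against 0.03 over all genes), 4 and 9 with the animal as a block, and 6 and 9 of 20 against stromal barcodes (median -0.16, against 0.05; 6 and 9 with the block). The largest decreases against all others were those of NID1 (-4.89), LAMA2 (-4.77), LAMB1 (-4.33) and NID2 (-2.85). COL4A3 had 13.2, 14.8 and 25.3 CPM against 0, 0 and 1.09 CPM in stroma (log2 fold change 4.51, SE 0.75, adjusted p = 0.0139), and its partner COL4A4 had a log2 fold change of 4.07 (adjusted p = 0.016). ITGA6, a laminin receptor subunit, had 148, 155 and 167 against 5.45, 5.37 and 9.65 CPM (log2 fold change 4.23, SE 0.32, adjusted p = 0.00307). LAMA5 was higher too, with a log2 fold change of 2.85 (adjusted p = 0.00717). Lower than in stroma were LAMB1, with 0.549, 0.971 and 2.78 against 71.95, 98.5 and 113 CPM (log2 fold change -5.94, SE 0.67, adjusted p = 0.00535), NID1, with 1.1, 0.582 and 2.24 against 117, 131 and 139 CPM (log2 fold change -6.49, SE 0.48, adjusted p = 0.00301), COL4A5 and COL4A6 (log2 fold changes -5.78 and -5.76). COL4A1 and COL4A2, the common chains of collagen IV, had 58.2, 59.2 and 72.8 and 165, 176 and 153 CPM and did not pass (adjusted p = 0.764 and 0.36, and 0.477 and 0.0839 with the block).

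Of the secreted and surface proteins, 0 were higher and 0 lower of 20 tested against all other barcodes (median log2 fold change 0.29, against 0.03 over all genes), 7 and 2 with the animal as a block, and 9 and 0 of 19 against stromal barcodes (median 2.05, against 0.05; 12 and 1 with the block). GATM, which makes the precursor of creatine, had 614, 624 and 391 CPM in Sertoli-like and 71.95, 46.6 and 28.2 CPM in stromal barcodes (log2 fold change 3.41, SE 0.54, adjusted p = 0.0122). TF, transferrin, which carries iron to germ cells, had 131, 137 and 90.4 against 1.09, 5.37 and 4.92 CPM (log2 fold change 4.69, SE 0.43, adjusted p = 0.0038). PTGDS, prostaglandin D2 synthase, had 274, 273 and 376 against 18.5, 10.7 and 40.96 CPM (log2 fold change 3.38, SE 0.46, adjusted p = 0.00801), and CST9L, a cystatin, 29.6, 27.7 and 30.4 against 3.27, 1.79 and 1.82 CPM (log2 fold change 3.74, SE 0.39, adjusted p = 0.00463). GATM and TF were lower in baboon 2 than in baboon 1, and PTGDS was higher. BEX1 had 625, 662 and 379 CPM and WFDC2 42.9, 50.9 and 98.7 CPM (log2 fold changes against stroma 2.29 and 3.54, adjusted p = 0.0156 and 0.00668). RHOXF1, a homeobox gene, was higher than in stroma (log2 fold change 2.05, SE 0.45, adjusted p = 0.0314) but had 13.8, 14.1 and 15.9 CPM against 46.04, 52.98 and 31.4 CPM in all other barcodes (log2 fold change -1.38, SE 0.36, adjusted p = 0.0768; 0.00109 with the block). SPARC was at 3.89, 6.21 and 1.62 CPM.

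Sertoli cells engulf residual and dying germ cells through the TAM receptors and their ligands, and of this list 0 were higher and 0 lower of 13 tested against all other barcodes (median log2 fold change 0.43, against 0.03 over all genes), 5 and 2 with the animal as a block, and 4 and 1 of 13 against stromal barcodes (median 0.68, against 0.05; 7 and 2 with the block). GAS6, a ligand of these receptors, was among the most abundant genes of the lists at 1072, 1042 and 1146 CPM, against 241, 254 and 353 CPM in stroma (log2 fold change 1.79, SE 0.27, adjusted p = 0.0107). TYRO3 had 65.7, 59.98 and 43.02 against 8.72, 3.58 and 6.74 CPM (log2 fold change 2.91, SE 0.38, adjusted p = 0.00734), and MERTK 25.6, 24.7 and 29.7 against 4.36, 8.95 and 7.28 CPM (log2 fold change 1.92, SE 0.30, adjusted p = 0.012). The third receptor, AXL, was at 2.03, 2.52 and 7.02 CPM and did not pass (log2 fold change 0.68, SE 0.77, adjusted p = 0.598, and 0.181 with the block). SCARB1, a lipoprotein and phosphatidylserine receptor, was higher (log2 fold change 2.77, SE 0.41, adjusted p = 0.0101), and MFGE8, a bridging protein, was lower (log2 fold change -2.17, SE 0.25, adjusted p = 0.00561). GAS6 and 2 of its receptors were higher in the same class.

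Sertoli cells feed germ cells with lactate, and of the genes of glycolysis 0 were higher and 0 lower of 18 tested against all other barcodes (median log2 fold change -0.02, against 0.03 over all genes), 3 and 2 with the animal as a block, and 2 and 1 of 17 against stromal barcodes (median -0.12, against 0.05; 5 and 5 with the block). The shares against stroma without the block were near those of all genes (8.83% higher and 11.2% lower). HK2 had 72.2, 66.97 and 77.9 CPM against 4.36, 1.79 and 6.92 CPM in stroma (log2 fold change 3.64, SE 0.36, adjusted p = 0.0042). LDHA had 111, 111 and 109 CPM and was lower than in stroma, at 178, 195 and 208 CPM (log2 fold change -0.93, SE 0.21, adjusted p = 0.0364). SLC2A1 had 1 UMI in all Sertoli-like barcodes together and 0 in stromal ones, and SLC16A1, a lactate transporter, 4.94, 4.66 and 7.21 CPM. Of cholesterol synthesis and steroidogenesis, 0 were higher and 0 lower of 14 tested against all other barcodes (median log2 fold change 0.15, against 0.03 over all genes), 3 and 1 with the animal as a block, and 1 and 0 of 14 against stromal barcodes (median 0.11, against 0.05; 6 and 3 with the block). The share higher against stroma without the block was near the 8.83% of all genes. The gene higher than in stroma was HSD17B3, which makes testosterone from androstenedione, with 129, 132 and 142 CPM against 11.99, 7.16 and 6.01 CPM (log2 fold change 4.06, SE 0.36, adjusted p = 0.00353). HSD3B2 had 65.4, 59.2 and 83.6 CPM against 29.4, 41.2 and 45.7 CPM and did not pass without the block (log2 fold change 0.77, SE 0.26, adjusted p = 0.0958, and 3.83e-04 with the block). Both genes also stand in the list of Leydig cell markers, whose defining gene INSL3 was at 0.878, 2.33 and 11.8 CPM.

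Of the mitotic genes, 0 were higher and 0 lower of 17 tested against all other barcodes (median log2 fold change -0.53, against 0.03 over all genes), 1 and 3 with the animal as a block, and 2 and 0 of 17 against stromal barcodes (median -0.16, against 0.05; 5 and 1 with the block). The genes higher than in stroma were MCM2 and MCM5 of the replicative helicase, a share close to the 8.83% of all genes (log2 fold changes 3.39 and 2.46, adjusted p = 0.0311 and 0.0192). MKI67 had 0.274, 0.873 and 1.27 CPM. Barcodes with 2 or more UMIs of the 17 listed genes after thinning made up 0.961%, 1.24% and 1.47% of Sertoli-like barcodes, that is 69, 49 and 52 barcodes, and 0.157%, 0.267% and 0.405% of stromal ones (1, 1 and 11). In all other barcodes the shares were 1.44%, 0.648% and 0.874%, above the Sertoli-like share in 1A and below it in 1B and baboon 2. The exact intervals were 0.748 to 1.21%, 0.921 to 1.64% and 1.10 to 1.92% in Sertoli-like barcodes. In stromal ones they were 0.00398 to 0.873%, 0.00675 to 1.48% and 0.202 to 0.724%. They cover counting error over barcodes only, and no test over animals was made.

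DAZL and UTF1, listed as germ cell markers, had UMIs in Sertoli-like barcodes. DAZL, an RNA-binding protein of germ cells, had 24.8, 29.3 and 19.3 CPM in Sertoli-like barcodes, 3.27, 0 and 0.728 CPM in stromal ones and 42.5, 29.6 and 15.6 CPM in all others. It was higher than in stroma (log2 fold change 4.31, SE 0.62, adjusted p = 0.00945) and not called against all others (adjusted p = 0.923). UTF1, a chromatin protein of undifferentiated germ cells, had 26.7, 25.4 and 64.2 against 2.18, 23.3 and 6.37 CPM (log2 fold change 2.39, SE 0.53, adjusted p = 0.0318), with a stromal level in 1B close to the Sertoli-like one and an adjusted p = 0.137 without 1A. After thinning, DAZL was found in 2.83% and 1.84% (6.41% and 12.002% without thinning) of Sertoli-like and 0.198% and 0.0368% of stromal barcodes. UTF1 was found in 2.52% and 5.96% (6.07% and 29.4% without thinning) of Sertoli-like barcodes, in 0 of 1011 stromal ones of baboon 1, where the 15 UMIs were lost by thinning (0.593% of barcodes without it), and in 0.589% of those of baboon 2 (1.18% without thinning). The UTF1 levels among barcodes with 10 to 100 UMIs were 33.7, 34.5 and 68.7 CPM, and those of DAZL 38.1, 35.9 and 19.5 CPM. The other germ cell genes did not follow them, since MAEL had 0.494, 0.388 and 0.733 CPM and TDRD1 0.823, 1.26 and 1.77 CPM, and 5, 1 and 3 Sertoli-like barcodes had 2 or more UMIs of DDX4, DAZL, MAEL and TDRD1 together after thinning. The source of these UMIs was not tested.

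Barcodes with 2 or more KRT19 UMIs, left out by the rule, were compared with the Sertoli-like ones. Of 14792 genes outside the rule, 0 were called (0.0%) by edgeR without the block, 85 had an unadjusted p under 0.05 (0.575%), and DESeq2 called 2. With the block 82 were called, 35 higher (0.237%) and 47 lower (0.318%) in Sertoli-like barcodes. KRT19-positive barcodes were deeper, with medians of 3503, 3666 and 16830.0 UMIs, and the KRT19 limit removed a larger share of deep barcodes. In baboon 2 it removed 0.771% of the barcodes with 1000 to 2000 UMIs that met the other limits and 23.5% of those with 8000 UMIs or more, and in 1A 0.26% and 5.11%. KRT19 itself stood at 525, 521 and 146 CPM in these barcodes, and AMH at 6106, 6666 and 7634 CPM.

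**Figure D3:**
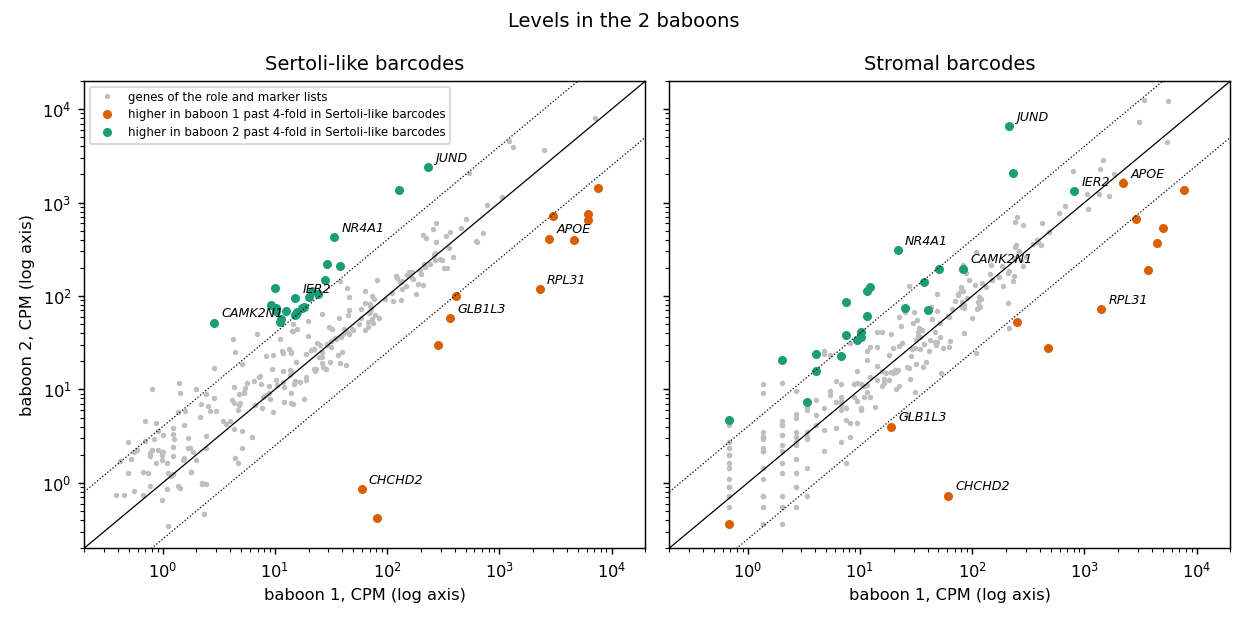
Levels in baboon 1 (horizontal) and baboon 2 (vertical) as CPM on log axes, in Sertoli-like barcodes (left) and stromal barcodes (right). Grey points are genes of the lists, and coloured points are the named genes past 4-fold in Sertoli-like barcodes; dotted lines mark 4-fold, and APOE lies outside them on the left at 2794 and 411 CPM and inside them on the right at 2206 and 1618 CPM.

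The animals were compared within Sertoli-like barcodes as a description, since there was 1 animal a side. Of 3647 genes with at least 50 CPM in either animal, 23 were at least 4-fold higher in baboon 1 (0.631%) and 35 in baboon 2 (0.96%), and with TMM factors 31 and 27, so that the balance turned with the scaling. Of the genes past 4-fold in CPM, 18 and 27 also passed 4-fold in all other barcodes. In baboon 2, KRT19-positive barcodes that met both Sertoli limits supplied 46.9% of the UMIs of these other barcodes. The overlap is therefore partly built in, and the share of all genes past 4-fold there was not counted. APOE, the apolipoprotein of lipid transport, stood at 2802, 2781 and 411 CPM in Sertoli-like barcodes, 6.8-fold higher in baboon 1. In stromal barcodes it had 2156, 2288 and 1618 CPM, a 1.36-fold ratio, and after thinning 88.5% and 28.8% (96.4% and 67.6% without thinning) of Sertoli-like barcodes of baboon 1 and baboon 2 had an APOE UMI, against 81.9% and 69.9% of stromal ones. APOE ran from 519 CPM in the shallowest to 397 CPM in the deepest Sertoli-like barcodes of baboon 2, below every depth class of baboon 1. The gap in APOE was larger in Sertoli-like than in stromal barcodes in these animals. In the barcodes read for RNA outside cells, APOE had 2844, 3261 and 836 CPM in 1A, 1B and baboon 2. Those levels were also higher in baboon 1, and they lay above the Sertoli-like level in each library. The part of RNA outside cells in the APOE gap was not tested. GLB1L3, a beta-galactosidase-like gene, had 367, 355 and 57.9 CPM, 6.26-fold higher in baboon 1, with a ratio of 4.74 in stromal barcodes at low levels (14.2, 26.9 and 4.01 CPM). Other genes of this direction were HBB, CHCHD2, CENPL and 4 ribosomal protein genes (RPL31, RPS20, RPL27A and RPL23A). Of the 23 genes higher in baboon 1, 11 had a LOC number only and 6 were ribosomal protein genes. Of the 35 higher in baboon 2, 12 had a LOC number only. For RPL31, with 2265, 2319 and 119 CPM, the ratio was 19.2 in Sertoli-like and 19.6 in stromal barcodes.

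In baboon 2, the gene with the largest ratio was CAMK2N1, an inhibitor of calcium/calmodulin-dependent kinase II, with 3.18, 2.33 and 51.8 CPM (18.02-fold). In stromal barcodes it had 89.4, 71.6 and 197 CPM, a ratio of 2.38. NR4A1, an orphan nuclear receptor of the immediate early response, had 34.8, 32.03 and 424 CPM (12.5-fold), with a ratio of 14.3 in stromal barcodes. JUND, of the AP-1 family, had 237, 222 and 2395 CPM (10.3-fold, 31.1-fold in stroma). NR4A2, PTGES3, C12H11orf96, UBE2M and ALYREF made up the rest of the first 8, with ratios between 7.27 and 12.1. The 16 immediate early genes, which dissociation of tissue is known to induce, summed to 6663, 6331 and 18674 CPM in Sertoli-like and 14508, 16179 and 45206 CPM in stromal barcodes, so baboon 2 was higher in both classes. Between classes, 0 were higher and 1 lower of 16 tested against all other barcodes (median log2 fold change -0.29, against 0.03 over all genes), 1 and 3 with the animal as a block, and 0 and 3 of 16 against stromal barcodes (median -0.97, against 0.05; 3 and 12 with the block). The share lower against all others without the block was near the 6.75% of all genes. IER2 had 15.7, 14.4 and 94.8 CPM in Sertoli-like and 751, 901 and 1314 CPM in stromal barcodes (log2 fold change -4.41, SE 0.88, adjusted p = 0.0237), whereas FOS, at 1233, 1193 and 4581 against 3248, 3710.0 and 12577 CPM, did not pass without the block (log2 fold change -1.58, SE 0.80, adjusted p = 0.24, and 1.48e-17 with the block). Against all others the gene lower was KLF4 (-2.42).

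Levels also varied with depth inside the Sertoli-like barcodes. From barcodes of 1000 to 2000 UMIs to those of 8000 or more, SOX9 went from 323 to 544 CPM in 1A, from 359 to 572 CPM in 1B and from 234 to 276 CPM in baboon 2. INHBB went from 176 to 299.9, from 149 to 353 and from 169 to 189 CPM. Deep barcodes had more of both genes in every library. AMH stayed between 6794 and 8320.0 CPM over all depths and libraries. FATE1 went from 151 to 110.3 CPM in baboon 2. The deepest class held 130, 77 and 981 barcodes, and since SOX9, INHBB, FATE1 and AMH chose the barcodes, these values are a description.

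**Figure D4:**
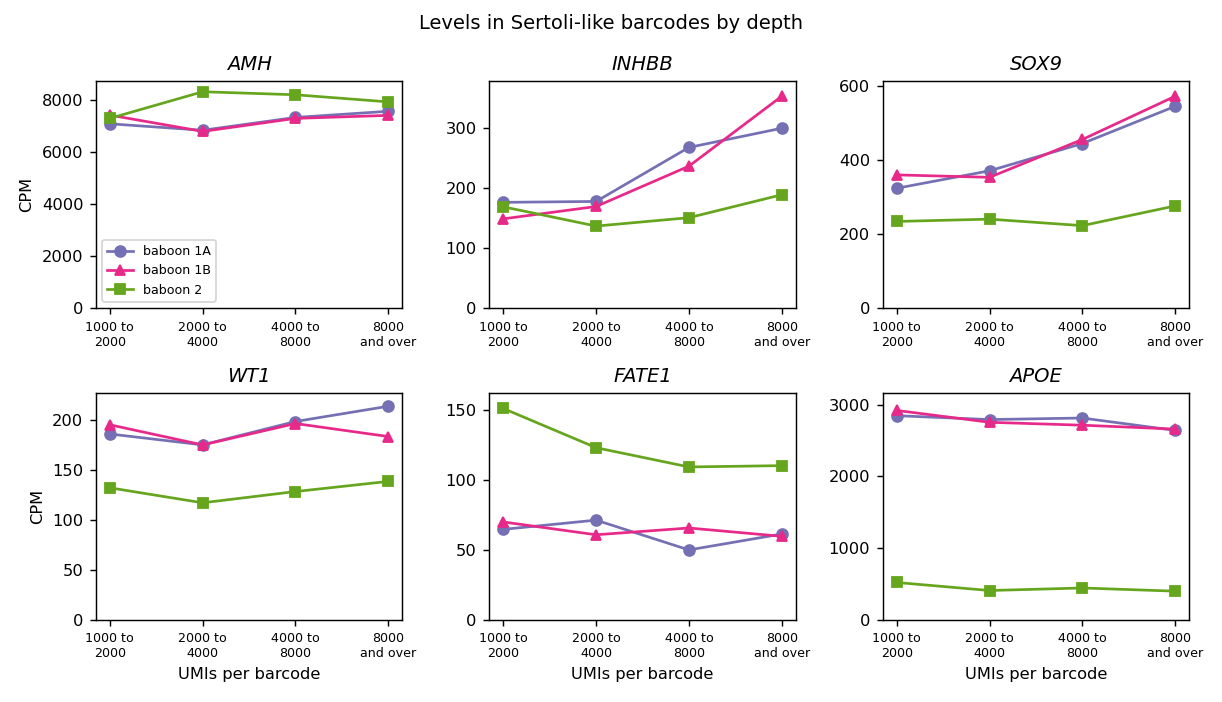
Levels (CPM, axes from 0) of 6 genes in Sertoli-like barcodes grouped by UMIs per barcode, with 1 line for each library. SOX9 and INHBB are highest in the deepest barcodes of baboon 1, while APOE separates the animals at every depth, between 2642 and 2921 CPM in baboon 1 and between 397 and 519 CPM in baboon 2.

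The same rule kept 7520 barcodes of the 2 rhesus monkeys. Species, annotation and genome differ, PDGFRA was not listed there, and the levels are set beside each other without a comparison. AMH had 6413 and 7039 CPM in rhesus 1 and 2, against 7086 and 8019 CPM in baboon 1 and 2. INHA had 2027 and 1795 CPM in the rhesus monkeys and 709 and 473 CPM in the baboons, and FSHR 18.1 and 27.7 CPM in the rhesus monkeys and 14.2 and 41.9 CPM in the baboons. PRND, nearly without UMIs in baboon Sertoli-like barcodes, had 4.63 and 189 CPM in rhesus 1 and 2. WT1 had 3.95 and 14.97 CPM in the rhesus monkeys.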

How the data were processed

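The 10x Genomics single-cell libraries were deposited by the authors as raw UMI counts per gene and barcode, with all barcodes. Per the labels the authors used Cell Ranger 3.1.0 and Seurat 3.2.3, and aligned baboon reads to Panubis1.0. The authors' own cell filters and clusters were not used here, and 0 value columns lacked a sample. Libraries 1A and 1B came from baboon 1. Members, gene lists and comparisons were chosen with earlier results of these data known. Counts were summed per animal and class and tested with edgeR 4.0.16 (limma 3.58.1, R 4.3.3) by the quasi-likelihood test, with TMM scaling, filterByExpr and Benjamini-Hochberg adjustment over all genes tested. The test without the block was tried on simulated counts with 200 genes changed by a log2 fold change of 2. It recovered 29.0% of them against all other and 43.5% against KRT19-positive barcodes. It called 0.0687% and 0.171% of the unchanged genes. A gene that did not pass may therefore still differ. The simulated sums were drawn independently of each other, unlike the correlated sums of an animal here, so these rates need not hold for the data. The comparison with stroma and the fit with the block were not simulated. DESeq2 1.42.0, other scalings, filters and limits were alternatives. SEs were derived from the fold change and its F statistic. Since both sums of an animal share its libraries, the animal served as a block, and their deviations correlated at 0.61 against all other and 0.55 against KRT19-positive barcodes. With 2 animals, p-values rest on few degrees of freedom. The test takes the spread of a gene in part from all genes together. Very small p-values, above all with the block, therefore do not stand for replication in more than 2 animals. Tables were made with Python 3.11.15, numpy 2.4.6, scipy 1.17.1 and pandas 2.3.3.

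Named genes were those of the rule and list members (first those that passed with the largest changes). The 10 genes in each direction with the largest changes among those that passed with at least 20 CPM in both animals were named too. So were at least the 8 largest ratios between animals past 4-fold. Genes known by a LOC number only were left out. SOX8, FSTL3, CXCL12, ALDH1A2, the CYP26 genes, SLC2A3, ALDOA, CLU, CST3, DEFB119, ITGA3, CYP11A1, CYP17A1, CYP19A1, CCNB2, MAGEA4, AIF1 and the alpha globins were not analysed here, nor were mitochondrial genes, and some list members are counted but not reported by name. Each barcode was thinned to 1000 UMIs for shares with a UMI. Intervals are exact binomial. Counts take reads of near-identical genes, such as ribosomal protein genes and their copies, as the authors' counting assigned them.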

Additional observations from a re-analysis of the deposited data

Results flagged for a closer look

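HBB, the beta-globin gene of red blood cells, went opposite ways in the animals. The log2 ratio of Sertoli-like to all other barcodes was 6.11 in 1A and 3.88 in 1B and -7.12 in baboon 2, and this difference was not tested. In 1A 1 Sertoli-like barcode held 2125 of 2131 HBB UMIs and in 1B 1 held 195 of 199, while in baboon 2 a pair of other barcodes held 3467 of 3476. Without barcodes of 10 or more HBB UMIs, Sertoli-like barcodes had 0.329, 0.388 and 0.424 CPM and all others 0.701, 0.384 and 0.509 CPM in 1A, 1B and baboon 2.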

How the results depend on the processing

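The counts of genes against all other barcodes (7 higher and 1144 lower) depended on the processing. They were 238 and 2209 with DESeq2, 128 and 2265 with no filter on low counts, 1197 and 2789 with libraries as samples, 620 and 2654 with no limit on KRT19, and 0 and 0 with a minimum of 2000 UMIs. The higher count was 0 with library size only and 2 with at least 0.5% of UMIs from the Sertoli cell genes. Leaving out 1A or 1B gave 0 to 1 higher and 709 to 894 lower genes. Without baboon 2 each class has 1 animal and there was no test. With the animal as the replicate block, 1753 and 3376 genes were called against all others, 35 and 47 against KRT19-positive barcodes (0 and 0 without it, 0 and 2 with DESeq2) and 3812 and 3511 against stroma. Against stroma without the block the counts were 1353 and 1714, and 1240.0 to 1341 and 1609 to 1681 without 1A or 1B. The comparator of other barcodes with under 0.3% of UMIs from the Sertoli cell genes gave 620 and 2633 genes, or 2731 and 4027 with the block. This comparator, the blocked fit against stroma and leaving out a library there were chosen after seeing the data. Some settings leave fewer barcodes or samples, and the cause of these differences was not tested.

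Among the genes whose fold change was followed under each alternative, directions turned for 7 relative to the comparison with all other barcodes. Against stroma, without and with the block, the log2 fold changes were 0.35 and 0.33 for SYCP3, 2.05 and 2.01 for RHOXF1, 4.31 and 4.22 for DAZL and 2.39 and 2.59 for UTF1, and they turned for CLDN11 without it (-0.10) and for KDR with it (0.064). GDNF went to -0.31 with the block, -0.081 with a minimum of 2000 UMIs, -0.33 with no limit on KRT19, and -0.49 and -0.88 with the comparator under 0.3%. Without 1 library, GDNF ranged from -0.11 to 0.52 and DAZL from -0.49 to 0.17, each with its turned value without 1A. APOE, named for the animals, had 0.36 against all others, -0.15 with the block, -0.30 against stroma and -0.92 there with the block.

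The share of Sertoli-like barcodes was 85.8% in baboon 1 and 60.2% in baboon 2 with a minimum of 2000 UMIs, 66.3% and 44.1% at 0.5% of UMIs, 79.5% and 52.2% with no limit on KRT19, and 77.6% and 45.1% at 8 times the stromal UMIs. It was 83.2% in baboon 1 at 0.2% and 48.5% in baboon 2 at 2 times the stromal UMIs. Past 2-fold, 116 genes were higher in baboon 1 and 244 in baboon 2, and with 1A or 1B alone the counts past 4-fold were 23 to 24 and 35 to 38. Depth limits the low genes, such as GDNF with 66 UMIs in baboon 1 and 12 in baboon 2.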
